A study of Mus musculus with 6 samples.

Results

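The insulin-like growth factor (IGF) family was followed through 10 genes: the ligands Igf1 and Igf2, the receptors Igf1r and Igf2r, and the binding protein genes Igfbp2, Igfbp3, Igfbp4, Igfbp5, Igfbp6 and Igfbp7. They were chosen by gene name, but with earlier results of these data known, and all 10 were found among the 23594 genes of the deposited table. All 10 also passed the filter on low counts that left 20114 genes for testing. RNA came from the apical part of the FDR, the furcation development region where the floor that separates the molar roots forms, cut by laser from sections of mandibular first molars. The mice were C57BL/6 and 4.5 days old (PN4.5), and no treatment was given. There were 3 control libraries from wild-type mice and 3 libraries from Lhx6-/- mice, which by the study's methods are homozygous for Lhx6-CreER, a knock-in that removes function of the LIM-homeobox gene Lhx6 in all tissues and carries a tamoxifen-inducible Cre. Each library combined tissue from several molars, so differences between single teeth are averaged within a library. The controls, labelled as wild type, were littermates by the methods, and mice of both sexes were used in the study.

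IGF1 and IGF2 are secreted growth factors that act through IGF1R, a receptor tyrosine kinase that drives the PI3K-AKT and RAS-MAPK cascades. IGF2R carries no kinase and removes IGF2 by taking it into the cell, and the binding proteins hold IGFs in the matrix or the circulation and either block or prolong their action. In teeth, IGF signaling is known to promote growth and differentiation of dental mesenchymal cells.

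Library totals ran from 60132323 to 76157433 estimated counts, and levels are given as CPM, counts relative to the library total, after TMM scaling, a correction for composition between libraries. The targeted gene was lower in every mutant library: Lhx6 stood at 18.2 to 27.8 CPM in control and at 9.82 to 12.8 CPM in Lhx6-/- libraries, a log2 fold change of -1.04 (standard error, SE, 0.16, edgeR adjusted p = 0.021). The tissue label was checked against marker lists. All 13 dental mesenchyme markers were detected, the lowest being Lhx8 at 17.7 CPM, but so were all 14 markers of dental epithelium, with summed levels of 136379 to 146226 CPM in control and 115576 to 146936 CPM in Lhx6-/- libraries. The captured tissue thus held transcripts of both layers. Lists for odontoblasts, follicle and periodontal ligament, osteoblasts, macrophages, erythroid cells, Schwann cells and skeletal muscle also had every marker above 1 CPM on average over the 6 libraries. In such bulk samples, more cells of a type and more RNA per cell cannot be told apart. Genes on the Y chromosome summed to 14.6 to 58 CPM in control and 55.1 to 92.1 CPM in Lhx6-/- libraries, so the sex make-up of the pools was not even. A fit with that level as a covariate is given below.

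To ask whether loss of Lhx6 changed the family, genotypes were compared by edgeR's quasi-likelihood test across all genes. Igfbp3 was the member that rose: its transcript was 1.94 times the control level in Lhx6-/- tissue. It was the only 1 of the 10 members to pass the fold and p rule, which asks for a change of 1.5-fold or more and an unadjusted p under 0.05 and was met by 3.28% of all tested genes (1.58% as higher and 1.71% as lower in Lhx6-/-), and the only 1 with an adjusted p under 0.05, reached by 0.403% of tested genes. The study lists Igfbp3 among its leading genes from these same libraries, so its rise here is not independent evidence. Without control replicate 3 the adjusted p of Igfbp3 was 0.0697 from edgeR, with a log2 fold change of 0.94. Among the other members, Igfbp4, Igfbp7, Igf1r and Igf2 had positive fold changes of 1.13 to 1.27 with unadjusted p-values under 0.05 that did not pass adjustment. In all, 5 of the 10 members had an unadjusted p under 0.05, all as higher, against 9.81% of tested genes in either direction and 4.75% as higher. In 6 of the 10 the genotypes did not overlap, again all as higher, against 15.5% of tested genes in either direction and 7.86% as higher. Of the 10 members, 9 had positive log2 fold changes, as had 49.7% of tested genes, with a median of 0.16 beside a median of -0.002 over all tested genes. The members were not matched to the other genes in abundance and were not chosen blind to earlier results of these data.

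**Figure D1:**
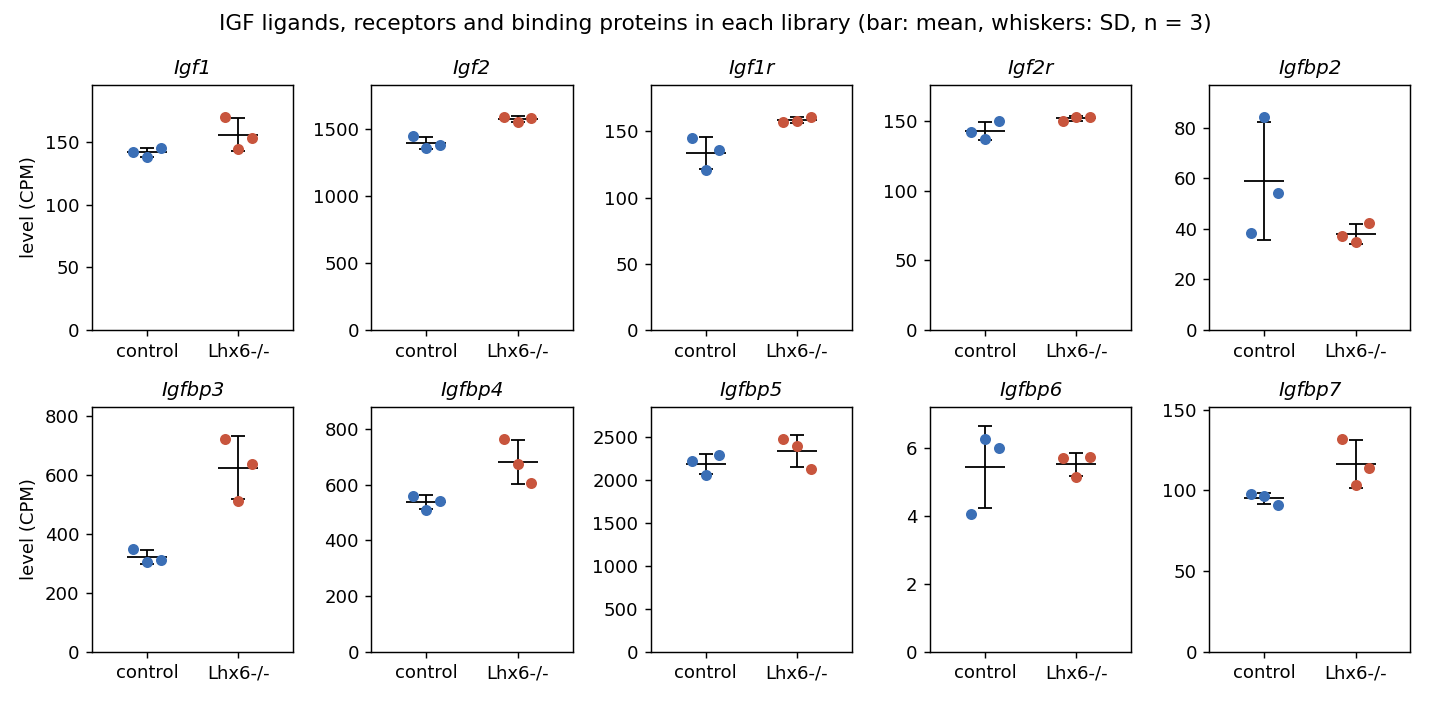
Level of each of the 10 genes in CPM (y axis, linear from 0) in 3 control (blue) and 3 Lhx6-/- (red) libraries, with the mean (bar) and SD (whiskers). Igfbp3 shows the widest gap, with 304 to 347 CPM in control and 510 to 722 CPM in Lhx6-/- libraries, and Igfbp2 the widest control spread relative to its mean, 38.5 to 84.4 CPM.

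Of the ligands, Igf2 is a growth factor gene expressed from the paternal allele in most tissues. Igf2 stood at 1442, 1357 and 1382 CPM in control replicates 1, 2 and 3 (the order kept throughout), against 1588, 1549 and 1582 CPM in the 3 mutant libraries. The groups did not overlap, but the gap was small, a log2 fold change of 0.17 (SE 0.07, 95% interval 0.01 to 0.34, edgeR adjusted p = 0.478). In GENCODE vM21, exons of Igf2 overlap Gm49394 on the same strand and Igf2os on the opposite strand, so reads could have been split between them and its level is uncertain to that extent. Igf1, the ligand best known as the mediator of growth hormone action, was read at 142, 138 and 145 CPM in the 3 controls, against 170, 144 and 153 CPM in the 3 mutant libraries. Its groups overlapped, since Lhx6-/- replicate 2 lay below control replicate 3. The log2 fold change of Igf1 was 0.14 (SE 0.08, 95% interval -0.03 to 0.30, edgeR adjusted p = 0.617).

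Because Igf1 has the longer exons, the ligands were compared per length, as CPM divided by kilobases of annotated exon (RPKM). Per length, Igf2 exceeded Igf1 by 16.5 to 17.6 times in control and by 16.2 to 18.7 times in Lhx6-/- libraries. These ranges overlapped, and the balance between the ligands showed no shift larger than the spread between libraries.

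Both receptor genes were detected in every library. Igf1r, the signaling receptor, stood at 145, 121 and 136 CPM in the 3 controls, against 157, 158 and 161 CPM in the 3 mutant libraries. Every Lhx6-/- library was above every control library, and the mutant libraries were close to each other (159 ± 1.85 CPM, SD, n = 3) while the controls were more spread (134 ± 11.8 CPM, SD, n = 3). The log2 fold change of Igf1r was 0.25 (SE 0.08, 95% interval 0.08 to 0.41), with an adjusted p of 0.273 from edgeR. Igf2r, whose product clears IGF2 and sorts lysosomal enzymes, was at 142, 137 and 150 CPM in the 3 controls, against 150, 153 and 153 CPM in the 3 mutant libraries. Control replicate 3 and Lhx6-/- replicate 1 nearly touched, and the log2 fold change was 0.09 (SE 0.07, 95% interval -0.06 to 0.23, edgeR adjusted p = 0.742). As a fold, that interval for Igf2r runs from 0.962 to 1.18 times control.

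Igfbp3 encodes the main carrier of IGFs in the circulation, which in tissues also restrains cell growth. On mm10 the gene lies on chromosome 11 from 7206086 to 7213923 on the minus strand. The gene was read at 347, 304 and 312 CPM in the 3 controls, against 722, 510 and 636 CPM in the 3 mutant libraries. Even the lowest Lhx6-/- library was well above the highest control library, although the mutant libraries were more spread (17.1% of their mean as SD, against 7.2% in control). The means were 321 ± 23.1 and 623 ± 107 CPM (SD, n = 3 in each). The log2 fold change was 0.96 (SE 0.12, 95% interval 0.70 to 1.21, edgeR adjusted p = 0.00739). Leaving out each library in turn kept its log2 fold change between 0.84 and 1.08.

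Igfbp4, a small binding protein cut by the protease PAPP-A to free IGFs, lies on the same chromosome from 99041244 to 99054392 on the plus strand. It was at 559, 510 and 540 CPM in the 3 controls, against 765, 673 and 606 CPM in the 3 mutant libraries. The groups did not overlap, and the log2 fold change was 0.34 (SE 0.09, 95% interval 0.14 to 0.55, edgeR adjusted p = 0.204). With DESeq2 in place of edgeR the adjusted p of Igfbp4 was 0.0111, with the same fold change. With limma the adjusted p of Igfbp4 was 0.165. DESeq2 was the only 1 of 18 alternatives in which it was under 0.05.

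Igfbp7 binds IGFs only weakly and is known as a vascular basement membrane protein. It was at 97.9, 96.2 and 91.1 CPM in the 3 controls, against 132, 103 and 114 CPM in the 3 mutant libraries. Again the groups did not overlap, with a log2 fold change of 0.29 (SE 0.09, 95% interval 0.10 to 0.48, edgeR adjusted p = 0.264). Its exons overlap those of Polr2b on the opposite strand, and the sources used here do not say whether counting used strand.

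Igfbp5, a matrix-bound binding protein of bone and mesenchyme, was the most abundant member per length. It was read at 2224, 2065 and 2290 CPM in the 3 controls, against 2486, 2401 and 2133 CPM in the 3 mutant libraries. The groups overlapped, with Lhx6-/- replicate 3 among the controls, and the log2 fold change was 0.09 (SE 0.09, 95% interval -0.10 to 0.29, edgeR adjusted p = 0.819).

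Igfbp2, which binds IGF2 with preference, had the opposite sign. It was at 38.5, 84.4 and 54.2 CPM in the 3 controls, against 37.2, 34.7 and 42.5 CPM in the 3 mutant libraries. Control replicate 2 was far above every other library, and control replicate 1 lay within the mutant range. The log2 fold change of Igfbp2 was -0.63 (SE 0.31, 95% interval -1.42 to 0.16, edgeR adjusted p = 0.62), and it was -0.28 without control replicate 2 and -0.86 without control replicate 1. In the latter fit Igfbp2 also met the fold and p rule, as lower. Control replicate 2 also had the highest mean level of dental epithelium markers, 8.42 on the log2 CPM scale against 8.02 and 8.05 in the other controls and 7.76 to 7.94 in Lhx6-/- libraries. With that mean as a covariate the log2 fold change of Igfbp2 was 0.10 (edgeR adjusted p = 0.919), and when the Y-linked level took the place of that covariate, -1.27 (edgeR adjusted p = 0.0805). The value of Igfbp2 thus moved in either direction with the covariate chosen.

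Igfbp2 and Igfbp5 are neighbours on chromosome 1, on opposite strands and pointing at each other, with 5457 bases and no annotated gene between them. Their values did not move alike: control replicate 2 was highest for Igfbp2 and lowest of all libraries for Igfbp5.

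Igfbp6, a binding protein with strong preference for IGF2, was the lowest member per length. Its estimated counts were 253, 419 and 354 in control and 348, 382 and 426 in Lhx6-/- replicates 1 to 3. In CPM these were 4.06, 6.27 and 5.99 against 5.7, 5.13 and 5.72, so all mutant libraries lay within the control range. The log2 fold change was 0.02 (SE 0.19, 95% interval -0.39 to 0.43, edgeR adjusted p = 0.989).

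**Figure D2:**
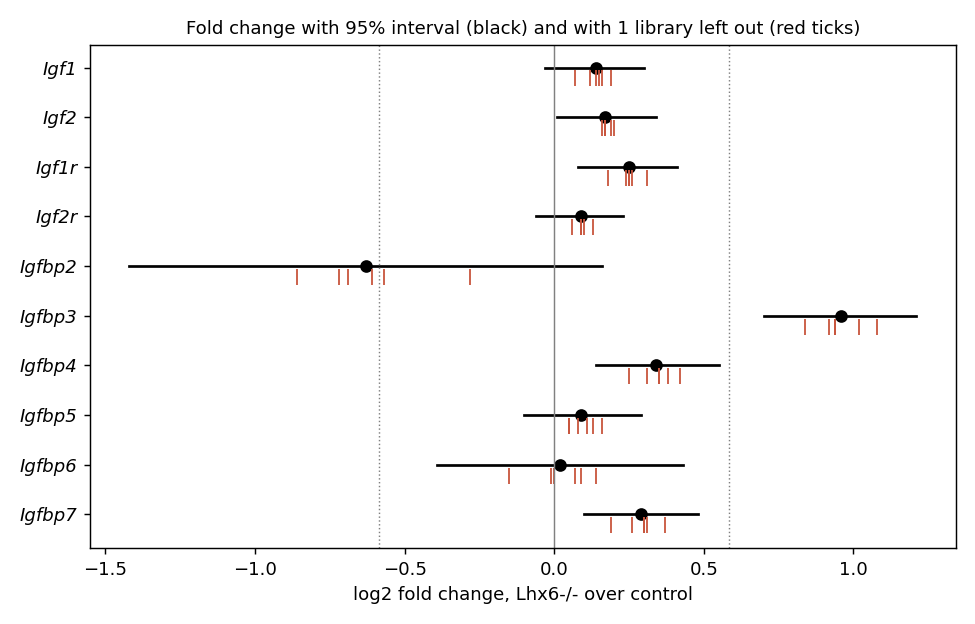
Log2 fold change of each gene, Lhx6-/- over control (x axis), as the estimate (black point) with its 95% interval (black line), and the estimates with 1 of the 6 libraries left out (red ticks); dotted lines mark a 1.5-fold change in either direction. The interval of Igfbp3, 0.70 to 1.21, lies wholly beyond 1.5-fold, and that of Igfbp2, -1.42 to 0.16, is the widest.

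The promoters of 4 binding protein genes are shown for the member that rose, the next by p-value, the next binding protein after that, and the member with a negative log2 fold change. A match describes letters only and is no evidence of binding. Each is a RefSeq window on GRCm38.p6 from 250 bases before to 50 bases after the start site, 5′ to 3′ on the gene's strand. Capitals mark matches on either strand to TATAAA or TATATA (forms of the TATA box), GGGCGG (the GC box bound by Sp factors) or TAATTA (a core bound by many homeodomain factors, LIM-homeodomain factors included).
Igfbp3 (chr11:7213874-7214173, minus strand): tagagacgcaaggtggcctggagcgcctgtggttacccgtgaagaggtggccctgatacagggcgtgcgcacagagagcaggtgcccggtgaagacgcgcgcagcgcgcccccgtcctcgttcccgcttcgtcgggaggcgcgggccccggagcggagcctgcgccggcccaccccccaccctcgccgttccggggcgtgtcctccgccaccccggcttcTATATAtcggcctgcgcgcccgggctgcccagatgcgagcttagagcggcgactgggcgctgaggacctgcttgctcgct
Igfbp4 (chr11:99040994-99041293, plus strand): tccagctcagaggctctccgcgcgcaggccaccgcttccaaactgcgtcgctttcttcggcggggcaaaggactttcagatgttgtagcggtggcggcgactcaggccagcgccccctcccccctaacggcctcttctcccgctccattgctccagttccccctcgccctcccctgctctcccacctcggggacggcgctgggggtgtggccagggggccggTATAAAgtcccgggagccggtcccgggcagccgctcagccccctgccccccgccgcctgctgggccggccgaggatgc
Igfbp7 (chr5:77407996-77408295, minus strand): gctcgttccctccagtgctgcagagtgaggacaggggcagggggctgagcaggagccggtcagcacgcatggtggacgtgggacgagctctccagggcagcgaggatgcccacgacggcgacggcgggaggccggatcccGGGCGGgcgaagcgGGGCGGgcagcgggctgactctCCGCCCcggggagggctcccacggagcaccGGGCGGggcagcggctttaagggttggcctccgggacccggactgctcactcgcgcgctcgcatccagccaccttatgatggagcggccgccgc
Igfbp2 (chr1:72824230-72824529, plus strand): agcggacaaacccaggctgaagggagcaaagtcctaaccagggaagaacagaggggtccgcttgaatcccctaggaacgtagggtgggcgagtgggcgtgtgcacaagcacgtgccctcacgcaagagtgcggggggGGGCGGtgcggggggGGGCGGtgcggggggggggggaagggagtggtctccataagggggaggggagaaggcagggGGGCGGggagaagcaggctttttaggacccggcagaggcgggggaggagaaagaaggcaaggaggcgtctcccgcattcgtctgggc

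RefSeq gives a second window for Igfbp2, at chr1:72825137-72825436, which is not printed. Igfbp3 held 1 TATATA beginning 30 bases before the start site, and Igfbp4 held 1 TATAAA beginning 28 bases before it. Neither held a GC box, whereas the printed windows of Igfbp7 and Igfbp2 held 4 and 3 GC boxes and no TATA form. The second Igfbp2 window held 0 GC boxes, no TATA form and 57.3% G or C. Of the 32851 mouse promoter windows of the same length, 13.6% held TATAAA, 5.67% TATATA, 35.7% GGGCGG and 5.29% TAATTA. The printed windows of Igfbp3, Igfbp4, Igfbp7 and Igfbp2 were 71.7%, 71.3%, 73.3% and 67% G or C, against a median of 52.7% over all windows. TAATTA was in none of these 4 windows. Over the 14 windows that RefSeq gives for the 10 members, it was found in 1, a window of Igf2.

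Levels between members were compared per length, in RPKM. In control the order was Igfbp5 (365 ± 19.3 RPKM, SD, n = 3), Igf2 (244 ± 7.61), Igfbp4 (121 ± 5.53), Igfbp3 (103 ± 7.38), Igfbp7 (78.6 ± 2.91), Igfbp2 (32 ± 12.7), Igf2r (15.4 ± 0.696), Igf1 (14.3 ± 0.356), Igf1r (7.98 ± 0.701) and Igfbp6 (4.89 ± 1.08). No neighbours in this order overlapped across the control libraries, although Igf2r (14.7 to 16.1 RPKM) and Igf1 (13.9 to 14.6 RPKM) came close. In Lhx6-/- libraries the order of means was the same except that Igfbp3 (199 ± 34.1 RPKM) and Igfbp4 (154 ± 18.1 RPKM) traded places. Exon lengths are unions over annotated transcripts, so an isoform shorter than the union is understated.

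The binding protein transcripts together summed to 687 to 713 RPKM in control and 818 to 952 RPKM in Lhx6-/- libraries. Of this sum, Igfbp3 made up 15.6%, 14.1% and 14% in control replicates 1 to 3 and 24.2%, 19.8% and 24.8% in Lhx6-/- replicates 1 to 3. Igfbp5 made up 51.9%, 50% and 53.5% in control and 43.5%, 48.5% and 43.4% in Lhx6-/- libraries. The share of Igfbp4 overlapped between genotypes, with 16.8% to 17.7% in control and 16.8% to 18.5% in Lhx6-/- libraries, and so did that of Igfbp7, with 10.6% to 11.6% and 10.3% to 11.5%. Igfbp2 made up 2.92%, 6.65% and 4.11% in control and 2.12%, 2.28% and 2.82% in Lhx6-/- libraries, so its shares did not overlap although its CPM did. Shares sum to the whole, and the lower shares of Igfbp5 went with a larger sum, since the level of Igfbp5 itself was 365 ± 19.3 RPKM in control and 390 ± 30.7 RPKM in Lhx6-/- libraries (SD, n = 3 in each). The sum over binding proteins was 2.68 to 2.79 times the sum over the ligands in control and 2.8 to 3.23 times it in Lhx6-/- libraries. These shares and sums are descriptions with no test.

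**Figure D3:**
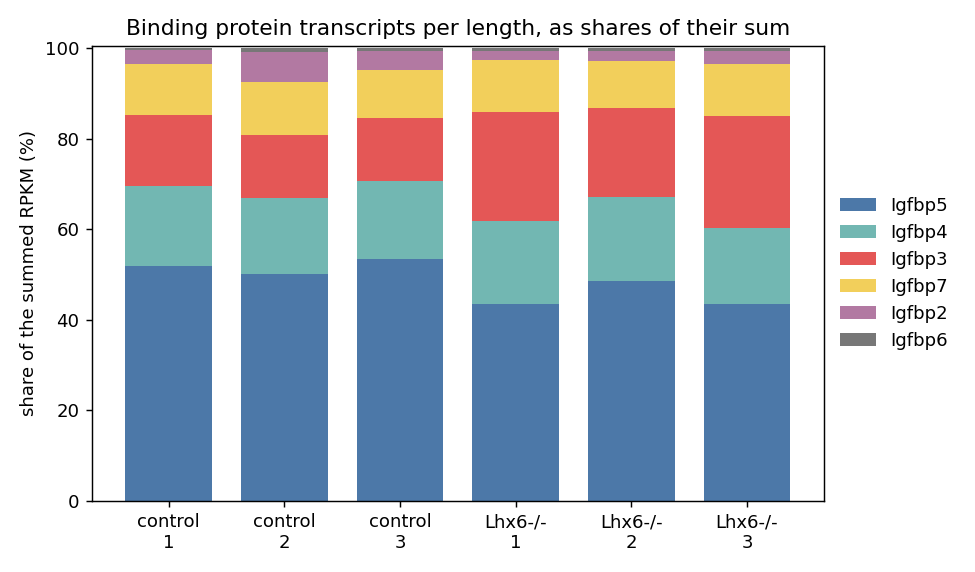
Share of each binding protein gene in the summed RPKM of the 6 binding protein genes (y axis, percent) in every library (x axis). The Igfbp3 band spans 14% to 15.6% in control and 19.8% to 24.8% in Lhx6-/- libraries, and the Igfbp5 band 50% to 53.5% and 43.4% to 48.5%.

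Igfbp3, Igfbp4 and Igfbp7 were each highest in Lhx6-/- replicate 1, as were Igf1, Igf2 and Igfbp5. The sums of 2 lists of vessel markers were highest there too. All 12 endothelium markers had positive log2 fold changes, with a median of 0.26, and 2 met the fold and p rule. Of all tested genes, 1.58% met that rule as higher. The endothelium sum was 440 to 452 CPM in control, and 583, 517 and 499 CPM in Lhx6-/- replicates 1 to 3. All 9 markers of pericytes and smooth muscle were likewise on the positive side, with a median of 0.36 and 2 that met the rule. Their sum was 587 to 653 CPM in control, and 932, 775 and 785 CPM in Lhx6-/- replicates 1 to 3. Lhx6-/- replicate 3 was above replicate 2 in Igfbp3, Igfbp7 and this sum, but below it in Igfbp4 and the endothelium sum. None of the vessel markers was at or near 0, the lowest being Sox17 at 5.92 CPM on average. Without Lhx6-/- replicate 1 the log2 fold change of Igfbp3 was 0.84. With the mean level of endothelium markers as a covariate, the log2 fold changes were 0.56 for Igfbp3, -0.08 for Igfbp4 and -0.06 for Igfbp7. In the same fit they were -0.12 for Igf1, -0.16 for Igfbp5 and -0.27 for Igfbp2. The values of Igf2, Igf1r, Igf2r and Igfbp6 were 0.14, 0.23, 0.10 and 0.04. In this fit 0 of the 10 members had an adjusted p under 0.05 from edgeR. The endothelium marker mean was 4.74 to 4.78 in control and 4.97 to 5.21 in Lhx6-/- libraries (log2 CPM). It did not overlap between genotypes, so in that fit the marker level and genotype cannot be told apart. The part of these cell types in the level of Igfbp3 was not tested further.

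**Figure D4:**
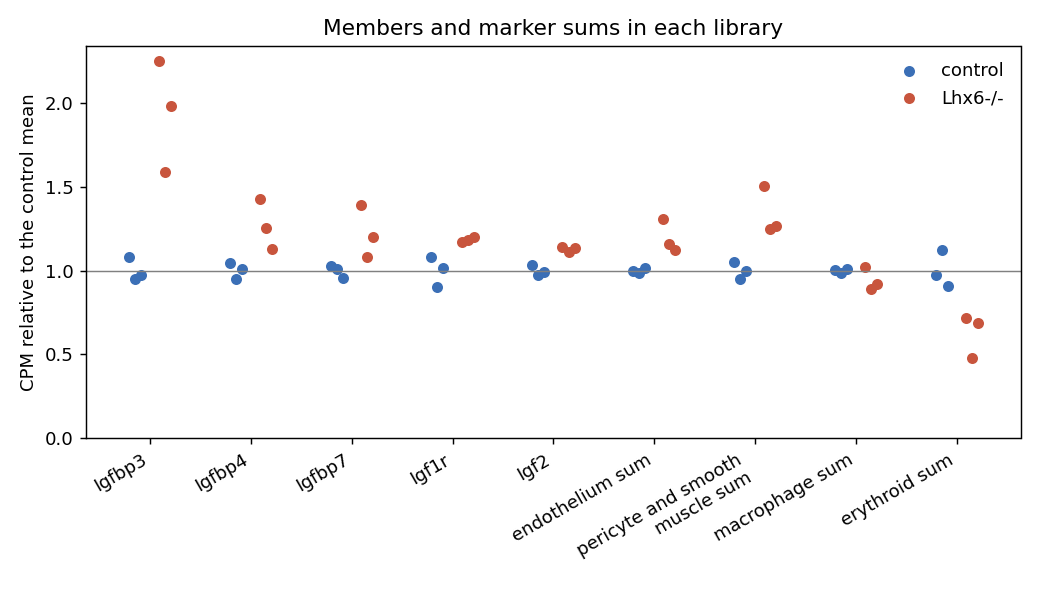
Level in each control (blue) and Lhx6-/- (red) library divided by the control mean (y axis, linear from 0) for 5 IGF genes and for the summed CPM of 4 marker lists. The endothelium and the pericyte and smooth muscle sums were higher in every Lhx6-/- library, the erythroid sum was lower (1610 to 2405 CPM against 3037 to 3765 CPM), and the macrophage sum overlapped (369 to 425 CPM against 410 to 420 CPM).

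Markers of dental epithelium were on the negative side in 13 of 14 genes, with a median of -0.23 (log2), and 4 of them met the fold and p rule as lower. Of all tested genes, 1.71% met it as lower. With the mean level of these epithelium markers as a covariate, Igfbp3 had a log2 fold change of 0.81 with an adjusted p of 0.201 from edgeR. That mean, 8.02 to 8.42 in control and 7.76 to 7.94 in Lhx6-/- libraries (log2 CPM), did not overlap between genotypes either, so here too it and genotype cannot be told apart. Macrophages are a known source of Igf1. Their 11 markers had a median of -0.11, and none met the rule, against 3.28% of all tested genes. The part of macrophages in the level of Igf1 was not tested. With the mean of Y-linked genes as a covariate, the log2 fold change of Igfbp3 was 1.14 with an adjusted p of 0.0173 from edgeR. That mean was 1.77, 3.71 and 1.76 in control and 3.69, 4.42 and 4.39 in Lhx6-/- replicates 1 to 3 (log2 CPM). It largely followed genotype, so that fit separates sex make-up from genotype poorly.

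The rest of the pathway was read from 5 lists that hold 83 genes, of which 81 were tested. Igfbp1 and Irs4 were absent from the deposited counts and so could not be tested. Of the 81, 1 rose and 1 fell by the fold and p rule, met by 1.58% of tested genes as higher and 1.71% as lower. An adjusted p under 0.05 from edgeR was reached by 0 of the 81, against 0.403% of tested genes. An unadjusted p under 0.05 was reached by 13, against 9.81% of tested genes. The genotypes did not overlap in 13 as higher and 7 as lower, against 7.86% and 7.68% of tested genes. The 2 that met the rule were Esm1 and Insrr.

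Outside the cell, 10 genes that bind IGFs or release them were tested. Esm1 encodes a proteoglycan of endothelial cells that is related to the binding proteins, and it averaged 1.44 ± 0.161 CPM in control and 2.26 ± 0.228 CPM in Lhx6-/- libraries (SD, n = 3 in each), which is 0.65 on the log2 scale (edgeR adjusted p = 0.413). Pappa2, a protease that cuts Igfbp3 and Igfbp5 proteins, had the smallest p of this list and was at 23.2 ± 5.09 and 17.2 ± 0.945 CPM (SD, n = 3 in each), which is -0.44 on the log2 scale (edgeR adjusted p = 0.303). The other 8 had log2 fold changes that did not meet the rule, among them Pappa, the protease that cuts Igfbp4 protein, at 0.37, and its inhibitors Stc1 and Stc2 at 0.08 and 0.10.

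Among 13 receptors and adaptors, Insrr, an orphan relative of the insulin receptor, fell. It was a gene of very few reads: 60, 24 and 62 estimated counts in control and 8, 1 and 2 in Lhx6-/- replicates 1 to 3. Its adjusted p was 0.0996 from edgeR and ran from 0.00179 to 0.676 over the alternatives. The insulin receptor gene Insr had a log2 fold change of 0.26 (edgeR adjusted p = 0.248), with 37.1 ± 2.06 CPM in control and 44.4 ± 1.77 CPM in Lhx6-/- libraries (SD, n = 3 in each). The adaptors Irs1 and Irs2 were at 0.01 and -0.04.

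None of 30 intracellular kinases, lipid enzymes and small G proteins met the rule, and their median log2 fold change was -0.03. The smallest p belonged to Hras, at 71.3 ± 8.2 CPM in control and 55.6 ± 4.45 CPM in Lhx6-/- libraries (SD, n = 3 in each), which is -0.36 on the log2 scale (edgeR adjusted p = 0.178). Akt1 and Akt2 were at -0.01 and 0.04.

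Of 11 genes that act on Igf1 or Igf2 transcripts or transcription, 9 had positive values, with a median of 0.15, and none met the rule. The growth hormone receptor gene Ghr had the smallest p of them, with a log2 fold change of 0.26 (edgeR adjusted p = 0.242). Of 17 FoxO factors and their targets, which AKT signaling holds down, 0 met the rule and the median was 0.05. Fbxo32, a muscle ubiquitin ligase gene, had the smallest p, with a log2 fold change of 0.28 (edgeR adjusted p = 0.324).

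**Figure D5:**
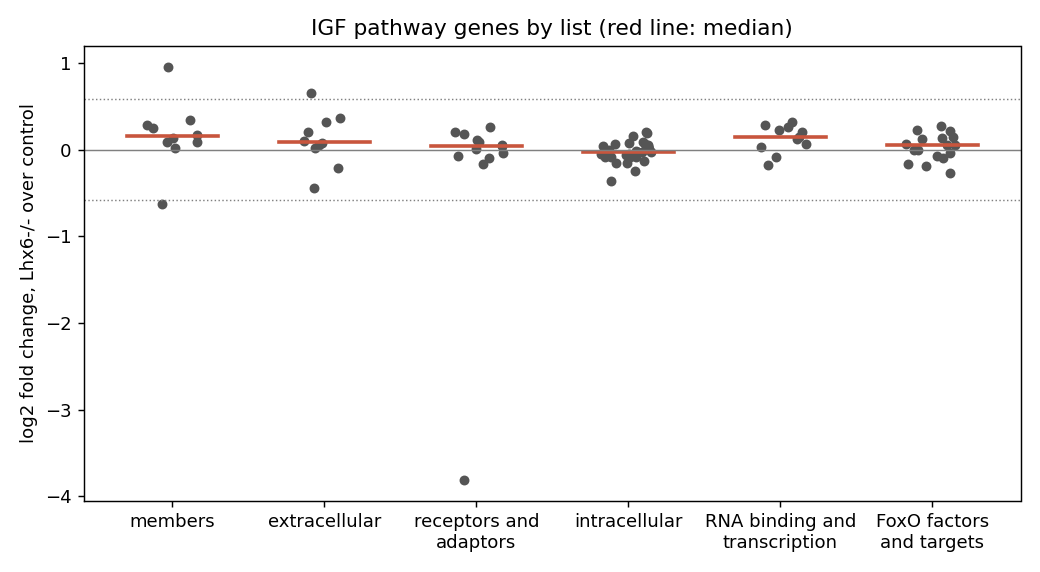
Log2 fold change, Lhx6-/- over control (y axis), of every tested gene (points, spread sideways for view) in the 10 members and the 5 pathway lists, with the list median (red line) and 1.5-fold limits (dotted). Medians lie between -0.03 and 0.16, and the lowest point is Insrr, a gene of at most 62 estimated counts.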

How the data were processed

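RNA of 3 control and 3 Lhx6-/- libraries was sequenced as single-end reads. Reads were trimmed by the authors and mapped with STAR 2.6.1d (mm10), and the authors, who used Partek, deposited estimated counts per gene, unscaled. The counter and annotation are not given in the sources used here. The deposited count table names no genes. Its column order was tied to the gene names of the authors' second table by rebuilding that table's group means, a score equal to 1 + CPM as deposited by the authors, on all 23594 genes (largest relative deviation 8.56e-08). That table also holds the authors' ratios, fold changes, p-values and false discovery rates, which were not used. Its last positions are 1 past the annotation's end and were lowered by 1.

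Estimated counts were rounded and tested with edgeR 4.0.16 in R 4.3.3 (TMM, factors 0.977 to 1.04, edgeR's expression filter, robust quasi-likelihood, genotype alone, two-sided), with Benjamini-Hochberg adjustment over 20114 genes. Intervals use the fold change, its standard error and the test's degrees of freedom. The rule of a 1.5-fold change with an unadjusted p under 0.05 follows the study's methods. It was applied here to edgeR's p-values, so the number of genes called differs from the study's. Exon lengths come from GENCODE vM21, promoters from RefSeq. The methods mention littermates and 3 sample pairs but do not say which libraries shared litters, so p-values measure the spread between these pools. Named were the 10 members, Lhx6, and in each pathway list the gene with the smallest p and those that met the rule. Others were named after their values were seen. The members and lists were chosen with earlier results of these data known. Alternatives used DESeq2 1.42.0 and limma 3.58.1, changed scalings and filters, covariates, a block for replicate number, and fits without 1 library. The code was tested on simulated counts. Figures were drawn with matplotlib 3.10.9.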

Additional observations from a re-analysis of the deposited data

How the results depend on the processing

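Over 18 alternatives for each of 10 members, 176 of 180 fits stayed on the same side of an adjusted p of 0.05, and 9 had the opposite sign after rounding to 2 decimals, none of them for Igfbp3. The count of members past the fold and p rule, 1 in the report, was 2 with non-robust dispersion and 2 with the Y-linked covariate. It was 0 with the endothelium covariate and 0 at a fold threshold of 2. With 1 library left out it ranged from 1 to 2 (2 without control replicate 1). In each fit that gave 2, the second member was Igfbp2, as lower (log2 fold changes of -0.63, -1.27 and -0.86 in that order). The count with an adjusted p under 0.05 was 2 with DESeq2, 0 with the dental epithelium covariate and 0 with the endothelium covariate, and ranged from 0 to 1 with 1 library left out (0 without control replicate 3). The log2 fold change of Igfbp3 was 0.81 (edgeR adjusted p = 0.201) with the dental epithelium covariate and 0.56 (edgeR adjusted p = 1) with the endothelium covariate, 0.84 to 1.08 with 1 library left out, and its adjusted p was under 0.05 in 15 of 18 alternatives. Pathway genes past the rule, 2 in the report, numbered 1 when at least 10 counts were required in every library, 3 with the dental epithelium covariate, 4 with the endothelium covariate, and 1 to 2 with 1 library left out (1 without control replicate 1, Lhx6-/- replicate 2 or Lhx6-/- replicate 3). Over all genes, 660 met the rule, 1241 with the Y-linked covariate, 350 at a fold threshold of 2, and 607 to 968 with 1 library left out. The causes were not tested. Insrr rests on few counts, at most 62 in a library, and whether depth limits it was not tested.

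With the replicate number as a block, the log2 fold change of Igfbp3 was 0.94 (edgeR adjusted p = 0.000533), and 1 member, 2 pathway genes and 652 of all genes met the rule. The replicate numbers are those of the sample titles, and the libraries' own names number the mutant libraries differently. Libraries with the same title number did not deviate together (correlations of 0.026, -0.029 and -0.031 across genes). The numbers were not taken to pair the libraries. Because the title numbers are not known to follow litters, neither the block nor these correlations can test pairing by litter. The block changed no call among the members.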
